A study of Callithrix jacchus with 54 samples.

Results

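BLSE is the growth factor mixture used to turn pluripotent cells towards germ cells: BMP4, LIF, SCF and EGF, here given with a Rock inhibitor. The libraries described are those of marmoset embryonic stem cells (cjESCs) taken through BLSE alone, with no enforced transcription factor: 10 of the 54 libraries, or 5 of the 27 conditions, with 2 libraries each. They were chosen by condition and not by any measured value, as cjESCs maintained in DK20FA (KnockOut DMEM with KSR, bFGF and activin A) and the same cells after 12, 24, 48 and 96 h of BLSE. All came from the cjESC line CMES40, an established line of the common marmoset carrying BLIMP1-tdTomato and NANOS3-eGFP reporters and inducible transgenes listed as rtTA, tetO-BLIMP1, SOX17-GR and DD-TFAP2C, the number in the last name differing between libraries. The transgenes were therefore present in every group, and the BLSE labels name no inducer. By the labels the BLSE libraries held all cells, whereas the 2 cjESC libraries held TRA-1-60(+) cells sorted away from the feeder layer, so that the sort and the start of the course cannot be told apart. Entry into BLSE also brought dissociation and a move from the feeder layer to low-binding wells, by the study's methods. The medium changed to a GMEM base with no bFGF or activin A listed. Effects of these changes cannot be told from those of the BLSE factors. The study's methods call the 2 libraries of a condition biological duplicates, without saying whether these were separate cultures, and p-values measure the spread between such libraries.

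As background, activin/NODAL and FGF signaling hold primate ESCs in a pluripotent state through POU5F1, NANOG and SOX2. BMP4 acts through SMAD1 and SMAD5 on immediate targets such as the ID and MSX genes, and in cells leaving pluripotency it favours posterior and extraembryonic mesoderm and amnion, depending on WNT and NODAL signaling. LIF acts through STAT3, SCF through the receptor KIT and EGF through EGFR. The same factors support primordial germ cells once a germ cell programme has been started.

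The deposited values are TPM, which give each transcript's share of its library after scaling by length. The depth of each library is unknown, since TPM keeps no read number. The 10 libraries held between 11625 and 12212 genes above 0 and correlated with their partner at r = 0.9860 to 0.9911 over genes on the log2(TPM + 1) scale. FN1 was listed at 0 in all 10 libraries, which in a gene that most cells use may be a failed estimate, so a value of 0 is given here only as listed. Differences are on the log2(TPM + 1) scale, which understates the change of low genes, and a gene is said to have risen or fallen where limma gave an adjusted p under 0.01 (Benjamini-Hochberg over 11197 genes) with a difference above 4-fold. All 4 markers given for the course, A2M, TBX4, DCN and LEF1, were higher in each of the 8 BLSE libraries than in both cjESC libraries. A2M, a secreted protease inhibitor, stood at 10.9 and 4.53 TPM in cjESCs, 38.4 and 47.7 at 12 h, 61.5 and 68 at 24 h, 147 and 225 at 48 h and 278 and 331 at 96 h. TBX4, a T-box factor of hindlimb, lung and allantois, stood at 1.0 and 1.89 TPM in cjESCs, 8.41 and 9.31 at 12 h, 27.3 and 27.1 at 24 h, 132 and 144 at 48 h and 233 and 293 at 96 h. Its level was higher at each sampled time than at the one before. The values of DCN, a small proteoglycan of connective tissue, were 16.4 and 35.3 TPM in cjESCs, 100.3 and 135 at 12 h, 122 and 114 at 24 h, 229 and 210.4 at 48 h and 1703 and 1054 at 96 h. LEF1, a nuclear partner of β-catenin, was at 4.19 and 4.29 TPM in cjESCs, 13.1 and 14.8 at 12 h, 18.6 and 16.9 at 24 h, 25.7 and 37 at 48 h and 51.4 and 52.3 at 96 h. It rose first at 48 h.

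The number of genes apart from cjESCs grew with time in both directions. At 12 h, 68 genes were higher and 15 lower, which is 0.607% and 0.134% of the genes tested. At 24 h these were 80 (0.714%) and 57 (0.509%), at 48 h 192 (1.71%) and 187 (1.67%), and at 96 h 316 (2.82%) and 369 (3.3%). Gains outnumbered losses at 12 h under each scaling tried. At 96 h the order of the counts depended on the scaling, with 346 higher and 338 lower under median-ratio scaling and 331 and 322 under quantile normalization. Between neighbouring times, only 2 genes rose from 12 to 24 h (0.0179%) and none fell by limma at this threshold, although 790 genes had an unadjusted p under 0.05. These were PLA2G2A, a secreted phospholipase listed at 0 in both cjESC libraries and at 8.89 and 7.76 TPM at 24 h, and the tight junction gene CLDN1, at 0.83 and 0.45 TPM at 12 h and 7.38 and 6.72 TPM at 24 h. Without any 1 of the 4 libraries of this step the count was 0 or 1. Over the next step 11 genes rose (0.0982%) and 19 fell (0.17%). The total of 30 (0.268%) was 11 without replicate 2 at 24 h and 19 without replicate 1 at 48 h. From 48 to 96 h 60 rose (0.536%) and 84 fell (0.75%). The later intervals are also longer, and neighbouring steps share their middle libraries.

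**Figure D1:**
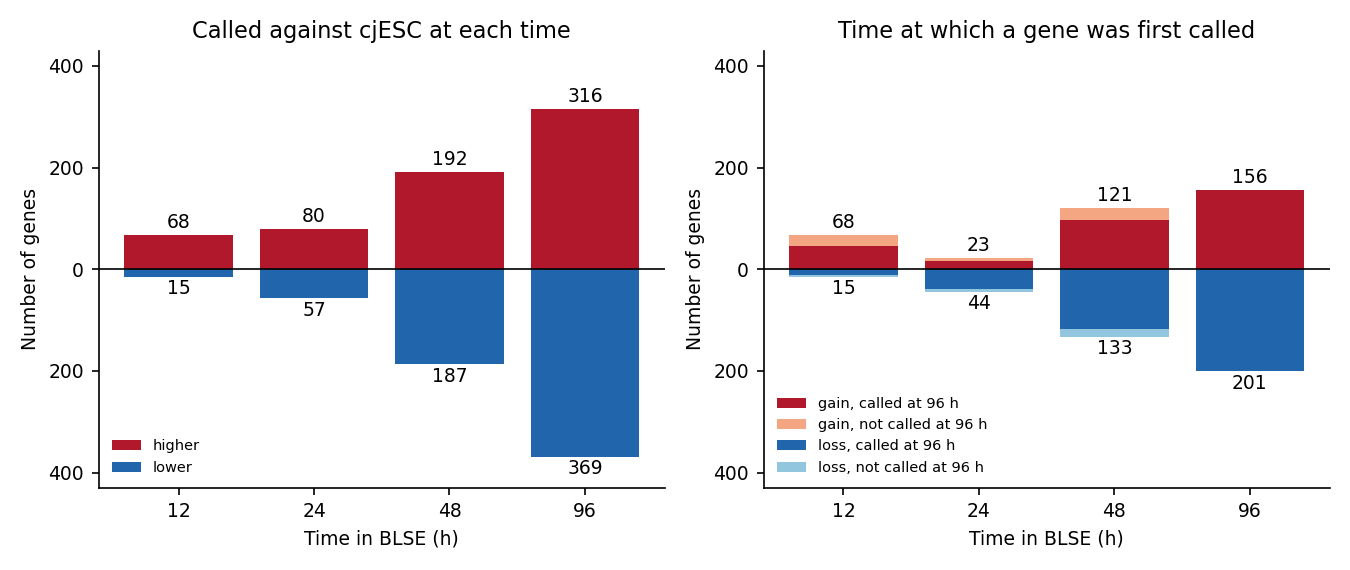
Left, genes called higher (up) or lower (down) than cjESCs at each time of BLSE; right, the time at which each of the 368 gained and 393 lost genes was first called, with the genes no longer called at 96 h in the pale part of each bar. The y axes count genes (0 at the centre line). Of the gains 68 were first called at 12 h against 15 of the losses, and 156 gains and 201 losses were first called at 96 h.

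Each gene was then placed by the time at which it was first called. Of 368 genes gained at any time (3.29% of those tested), 68 were first called at 12 h, 23 at 24 h, 121 at 48 h and 156 at 96 h. Of 393 genes lost (3.51%), the numbers were 15, 44, 133 and 201. By share, 18.5% of the gains but 3.82% of the losses were called by 12 h. Without replicate 2 of cjESCs the losses first called at 12 h were 26. No gene was called in both directions. Since all 4 comparisons use the same cjESC libraries, these classes are a description and were not tested against each other. In pooled cells a loss can mean fewer cells of a kind or less RNA in each, and these cannot be told apart.

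Among genes with a symbol, the 3 largest rises at 12 h were those of TGFBI, a secreted matrix protein (log2 difference 4.2), TCIM (3.61) and the chemokine gene CCL2 (3.59). TGFBI was at 31.1 and 25.9 TPM in cjESCs, 504 and 573 at 12 h, 635 and 685 at 24 h, 787 and 1116 at 48 h and 326 and 486 at 96 h.

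BMP4 is the ligand of the mixture whose targets are best known, and 5 of the 68 genes gained at 12 h were among them. Of 16 measured BMP targets and feedback genes, 5 had thus risen by 12 h, 8 were higher at 48 h and 5 at 96 h; none fell. ID3, which blocks bHLH factors, was at 174 and 164 TPM in cjESCs, 789.8 and 794 at 12 h, 815 and 822 at 24 h, 935 and 922 at 48 h and 609 and 619.9 at 96 h. It was lower in both 96 h libraries than in any of the earlier BLSE libraries. MSX2, a homeobox target of BMP, was likewise lower in both 96 h libraries than earlier in BLSE, at 21.6 and 24.5 TPM in cjESCs, 179 and 150.1 at 12 h, 210.2 and 203 at 24 h, 173 and 139.9 at 48 h and 61.8 and 86 at 96 h. Its log2 difference at 12 h was 2.78 (SE 0.22, limma adjusted p = 3.07e-11). ID4 rose by 2.58 and stood at 1.38 at 96 h, where it was no longer called. BAMBI, a pseudoreceptor that dampens BMP and activin signals, did not fall back: it was at 59.8 and 67 TPM in cjESCs, 357 and 342 at 12 h, 433 and 416 at 24 h, 663 and 737 at 48 h and 884 and 1099 at 96 h. DLX5, a homeobox gene of limb and ectoderm, was at 0.60 and 0.79 TPM in cjESCs, 10.1 and 7.33 at 12 h, 23 and 14.6 at 24 h, 64.8 and 64.5 at 48 h and 11.6 and 17.8 at 96 h. From 48 to 96 h it fell by 2.09 on the log2 scale while staying above cjESCs. Without replicate 1 at 96 h that step was -1.80 and was not called. The ligand gene BMP2 rose only at 96 h, at 6.39 and 5.76 TPM in cjESCs, 18.1 and 22.8 TPM at 48 h and 101 and 103 TPM at 96 h. SMAD7 and ID1, further feedback and target genes, were not called at any time; ID1 was at 279 and 208 TPM in cjESCs and 677 and 648 TPM at 12 h. Among antagonists of the pathway, NOG fell by 2.1 and BMPER fell by 3.13 on the log2 scale between 48 and 96 h, although neither was called against cjESCs.

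Transcription factors of lateral plate and extraembryonic mesoderm made up a further block. Of 17 kept by the filter on low values (18 in the table), 4 had risen by 12 h, 9 were higher at 48 h and 10 at 96 h, with a median difference of 3.25 at 96 h against -0.08 over all genes; none fell. TBX3 rose furthest of these at 12 h, from 3.78 and 6.01 TPM in cjESCs to 66.8 and 61.9 TPM, a log2 difference of 3.50 (SE 0.29, limma adjusted p = 3.55e-11). It reached 203 and 206 TPM at 48 h and stood at 124 and 151 TPM at 96 h. FOXF1 and FOXF2, forkhead factors of visceral mesoderm, rose by 2.49 and 2.14 at 12 h. HAND1, a bHLH factor of extraembryonic and cardiac mesoderm, was already abundant in cjESCs at 259 and 426 TPM; it was at 1149 and 1193 TPM at 12 h and 1769.6 and 1729 TPM at 48 h. TBX20, a cardiac T-box factor, followed at 24 h, TBX2 and the epicardial bHLH gene TCF21 at 48 h, and HAND2 and NKX2-5 at 96 h. PITX1, which specifies hindlimb, was low and uneven between replicates before 48 h: it was at 0.90 and 0 TPM in cjESCs, 0.54 and 6.61 at 12 h, 4.79 and 3.29 at 24 h, 26.4 and 36.2 at 48 h and 182 and 196 at 96 h. Among all genes with a symbol, the 3 largest rises against cjESCs at 96 h were those of PRR9 (log2 difference 8.66), PITX1 (7.11) and TBX4 (6.77). PRR9, a proline-rich gene known from epidermis, went from 0.38 and 2.0 TPM to 59 and 40.9 TPM at 48 h and 645 and 1042 TPM at 96 h.

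**Figure D2:**
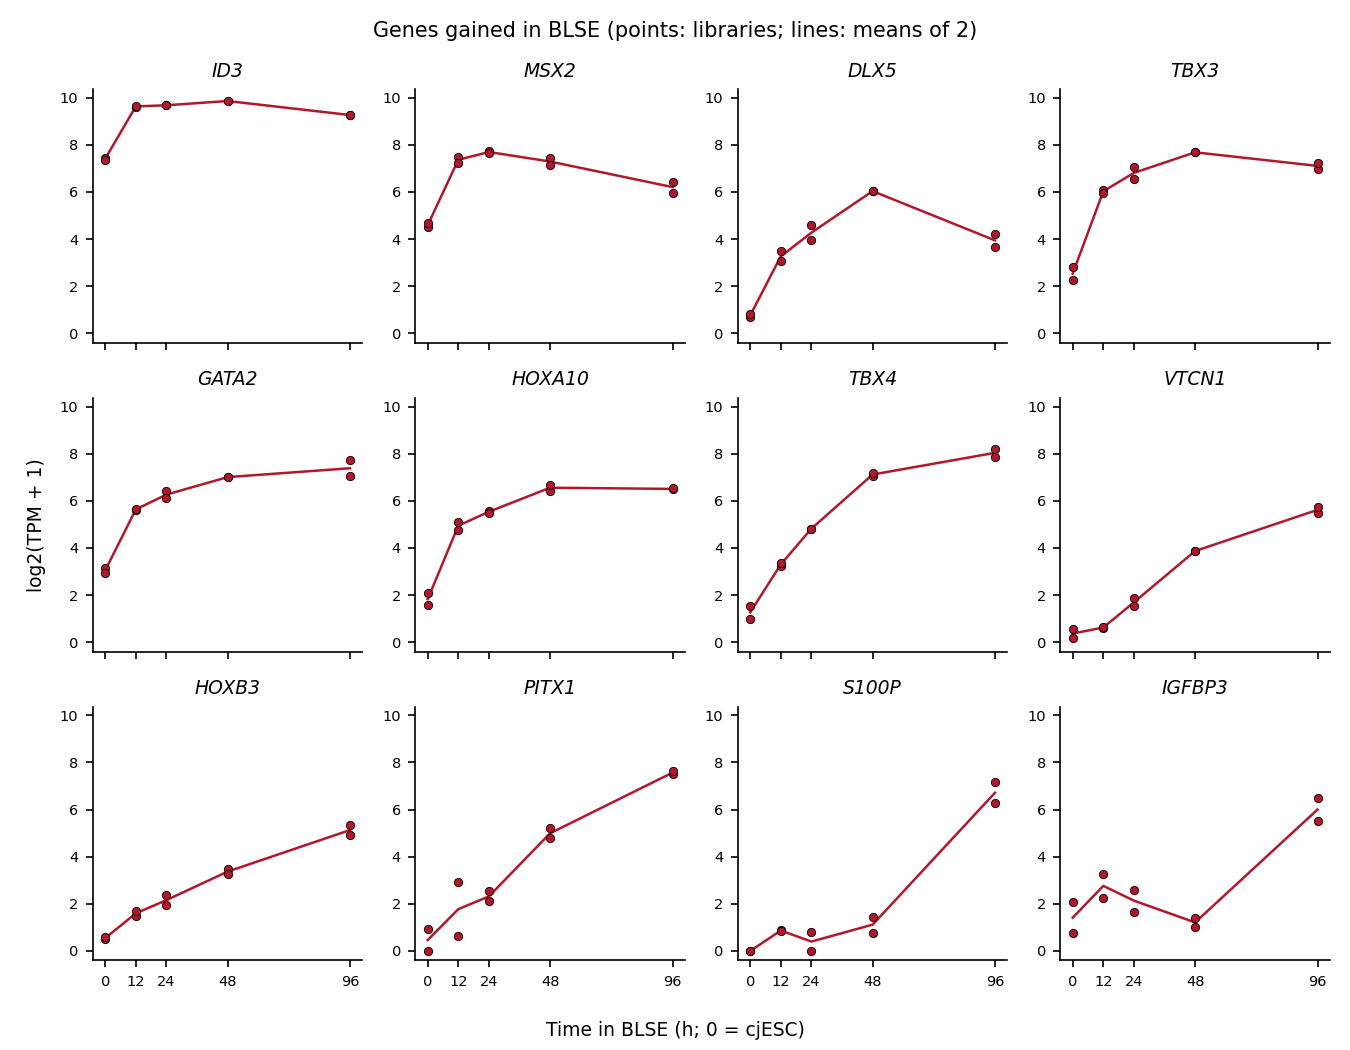
Expression of 12 gained genes over time in BLSE, with time in h on the x axis (cjESCs at 0) and log2(TPM + 1) on the y axis; each point is 1 library and each line joins the means of 2. ID3 and MSX2 were higher from 12 h and lower at 96 h than at 48 h, TBX4, PITX1 and HOXB3 climbed through 96 h, and S100P and IGFBP3 stayed low until 48 h.

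Of 26 HOX genes kept by the filter, 6 had risen by 12 h, 14 were higher at 48 h and 15 at 96 h, and none fell. The 12 h set was HOXA5, HOXA9, HOXA10, HOXA11, HOXA13 and HOXB6. HOXA10 stood at 1.99 and 3.2 TPM in cjESCs, 26.2 and 33.8 at 12 h, 47 and 43.9 at 24 h, 85 and 102 at 48 h and 88.5 and 91 at 96 h. HOXA13, at the 5′ end of its cluster and known in the most posterior tissues, was at 1.14 and 1.85 TPM in cjESCs, 14 and 21 at 12 h, 37.3 and 27.1 at 24 h, 78.4 and 80.3 at 48 h and 93.3 and 84.1 at 96 h. The 5′ members of this cluster were thus called no later than HOXA5, whereas HOXA6 and HOXA7 were first called at 48 h. In the HOXB cluster the time of first call also differed between members. HOXB6 was at 3.59 and 3.68 TPM in cjESCs and 27.8 and 42.3 TPM at 12 h. By contrast HOXB3 was at 0.42 and 0.50 TPM in cjESCs, 1.82 and 2.25 at 12 h, 4.15 and 2.87 at 24 h, 10.2 and 8.52 at 48 h and 39.3 and 29.6 at 96 h. HOXB7 was at 1.61 and 1.43 TPM in cjESCs, 4.41 and 8.34 at 12 h, 6.99 and 5.26 at 24 h, 12 and 15.3 at 48 h and 54.9 and 52.6 at 96 h. HOXB4 was first called at 96 h. HOXB13 rose at 24 h only, from 0.63 and 0.83 TPM to 6.31 and 8.17 TPM, and was at 2.07 and 1.92 TPM at 48 h. HOXC11 went from 0 and 0.23 TPM to 9.63 and 10.2 TPM at 24 h and was called from then on. HOXA2, towards the 3′ end, was not called at any time. CDX2, a caudal factor upstream of posterior HOX genes, also rose, with 3.69 and 9.06 TPM in cjESCs, 44.7 and 36.9 TPM at 24 h and 62.7 and 55.2 TPM at 96 h. Its relative CDX1 fell at 96 h, with 179 and 136 TPM in cjESCs, 156 and 155 at 12 h, 148 and 198 at 24 h, 34.7 and 46.4 at 48 h and 0.72 and 2.38 at 96 h.

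Amnion markers came up in steps. Of 12 measured, 2 had risen by 12 h, 5 were higher at 48 h and 6 at 96 h, and none fell. Over all genes tested, 0.607%, 1.71% and 2.82% were higher at these times. GATA2 was at 7.84 and 6.69 TPM in cjESCs, 47.9 and 49.5 at 12 h, 83.9 and 68.5 at 24 h, 127 and 128 at 48 h and 131 and 209 at 96 h. ISL1, a LIM homeobox gene of amnion and heart progenitors, went from 0 and 0.38 TPM to 6.08 and 6.42 TPM at 12 h and 28.3 and 32.1 TPM at 48 h. VTCN1, an immune checkpoint ligand that marks late amnion, stood at 0.13 and 0.47 TPM in cjESCs, 0.53 and 0.55 at 12 h, 2.62 and 1.88 at 24 h, 13.7 and 13.5 at 48 h and 44.4 and 52 at 96 h. GABRP was first called at 96 h at 8.7 and 14.9 TPM. IGFBP3, a carrier of insulin-like growth factors, was at 3.17 and 0.70 TPM in cjESCs, 3.78 and 8.64 at 12 h, 2.17 and 5.1 at 24 h, 1.05 and 1.62 at 48 h and 89.2 and 44.5 at 96 h. It was higher in both 96 h libraries although these differed from each other. TFAP2B and GATA3 did not pass, at 0.090 and 0.080 and 88.8 and 130.2 TPM at 96 h. Of 12 trophoblast markers listed, only 6 were kept. PGF was higher than in cjESCs at 96 h, and GCM1, SDC1, TP63, TEAD4 and GATA3 were not called against cjESCs. Trophoblast genes outside this short list were not read as a group. GCM1 rose between 48 and 96 h, from 3.21 and 1.19 TPM to 6.98 and 17.5 TPM, by 2.0 on the log2 scale; the call was lost without replicate 2 at 48 h (1.53) or replicate 2 at 96 h (1.39).

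Only 15 genes had fallen by 12 h, and 3 of them were regulators of pluripotency. SOX2 was at 191 and 200.4 TPM in cjESCs, 32.5 and 36.5 at 12 h, 9.36 and 10.6 at 24 h, 2.44 and 4.08 at 48 h and 2.08 and 1.01 at 96 h. Its log2 difference at 12 h was -2.47 (SE 0.28, limma adjusted p = 7.24e-08). PRDM14, a repressor that guards pluripotency and later germ cell fate, stood at 202 and 130.0 TPM in cjESCs, 35.3 and 31.7 at 12 h, 15.6 and 16.3 at 24 h, 2.15 and 2.04 at 48 h and 0.18 and 0 at 96 h. FOXD3, a forkhead factor of epiblast and neural crest, was at 23.9 and 16.1 TPM in cjESCs, 1.62 and 4.13 TPM at 12 h, 1.18 and 0.42 TPM at 24 h and listed at 0 from 48 h on. The other core factors passed the 4-fold threshold later or not at all, although all 14 of the list had an unadjusted p under 0.05 at 12 h, with a median of -1.14. UTF1, a chromatin protein of ESCs, was first called at 24 h, with 247 and 177 TPM in cjESCs, 88.6 and 107 at 12 h, 37.6 and 49 at 24 h, 4.83 and 5.31 at 48 h and 0.60 and 1.08 at 96 h. NANOG passed the threshold at 48 h, at 743 and 514 TPM in cjESCs, 294 and 252 at 12 h, 144 and 190.3 at 24 h, 31.5 and 22.6 at 48 h and 1.46 and 2.17 at 96 h. At 12 h its difference was -1.18 (SE 0.17, limma adjusted p = 6.35e-06). POU5F1 was the last, at 3082 and 2868 TPM in cjESCs, 2536 and 2471 at 12 h, 2284 and 2526 at 24 h, 1608 and 1376 at 48 h and 103 and 125 at 96 h. It had a difference of -1.0 at 48 h and -4.70 (SE 0.10, limma adjusted p = 2.22e-30) at 96 h. Of the 14 measured core pluripotency genes, 3 were lower at 12 h, 5 at 24 h, 9 at 48 h and 10 at 96 h. SALL4, LIN28A, LIN28B and DPPA4 were not called at any time; LIN28A was at 1615 and 1295 TPM in cjESCs and 1221 and 1014 TPM at 96 h, and DPPA4 at 497 and 346 TPM and 145 and 120.0 TPM.

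**Figure D3:**
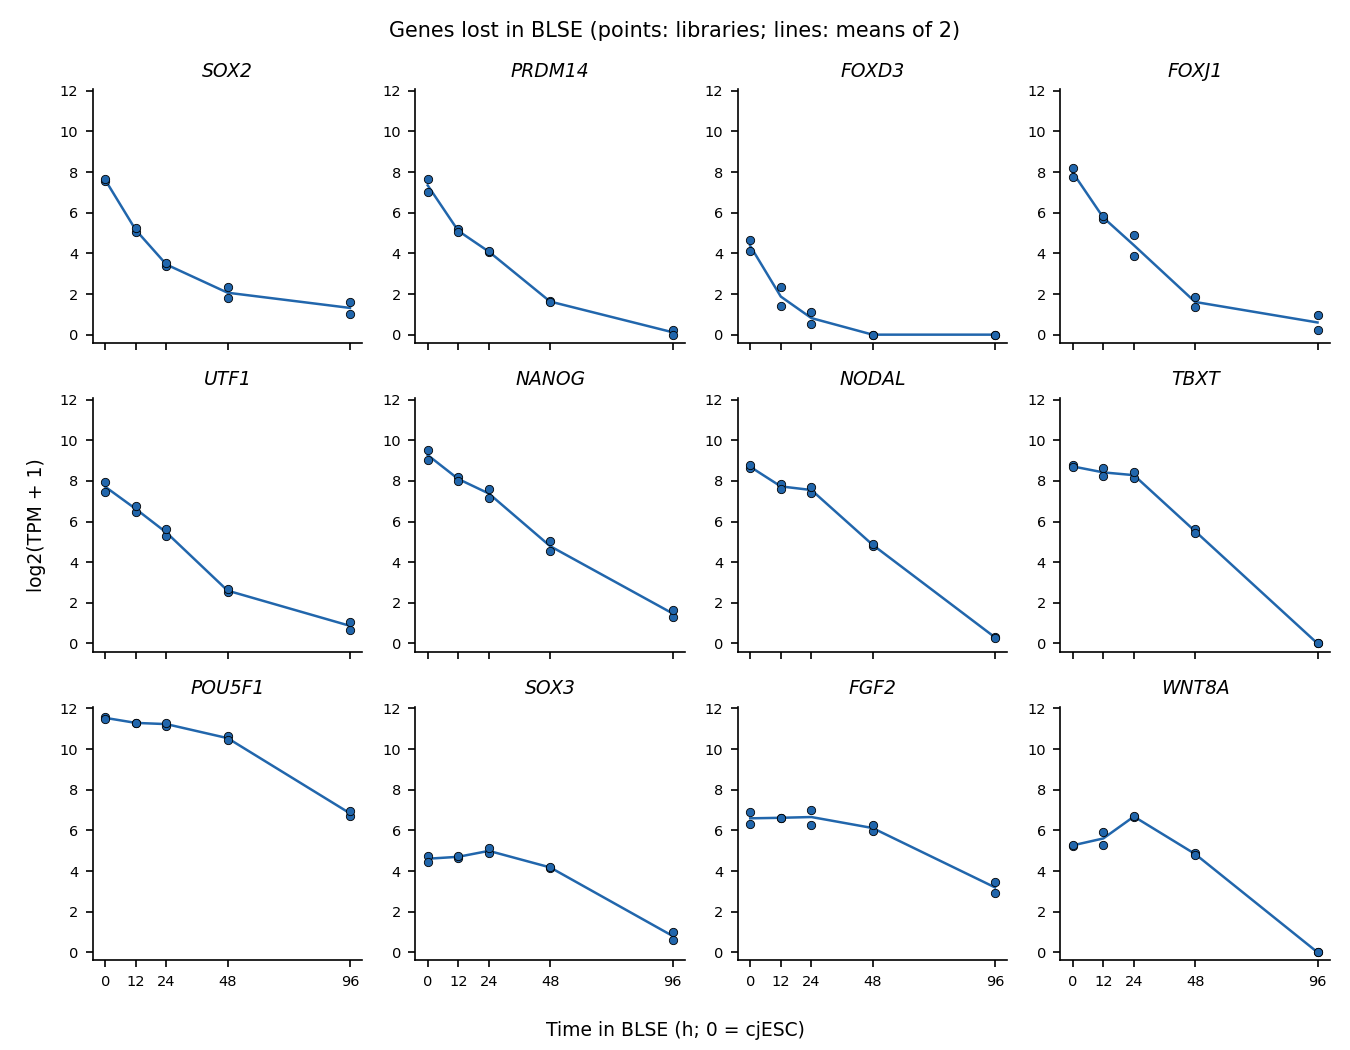
Expression of 12 lost genes over time in BLSE, drawn with time in h on the x axis (cjESCs at 0) and log2(TPM + 1) on the y axis; points are libraries and lines join the means of 2. SOX2, PRDM14, FOXD3 and FOXJ1 were lower by 12 h, NANOG, NODAL and TBXT were called from 48 h, and POU5F1, SOX3, FGF2 and WNT8A from 96 h.

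A further group among the first losses was one of motile cilia. This list was put together after its members were seen to fall, so its count is descriptive: of 24 kept genes (35 in the table), 4 were lower at 12 h, 12 at 48 h and 13 at 96 h, with a median of -2.24 at 96 h. With a pseudocount of 0.1 the count at 96 h was 6. FOXJ1, the master regulator of motile cilia, was at 289 and 219 TPM in cjESCs, 50.6 and 56 at 12 h, 13.7 and 29.4 at 24 h, 2.65 and 1.55 at 48 h and 0.16 and 0.98 at 96 h. CFAP126 stood at 37.7 and 54.5 TPM in cjESCs, 7.49 and 7.87 TPM at 12 h and 4.36 and 4.7 TPM at 24 h, and was listed at 0 in both libraries at 96 h. SPAG6, a central-pair protein of the axoneme, went from 147 and 156 TPM to 40.1 and 38.5 TPM at 12 h and 9.77 and 13.3 TPM at 96 h. MYB, CFAP44, TEKT1 and AKAP14 were first called at 24 h, as was SPAG6, and 11 of the 24 were not called. RSPH1, DNAH5 and CCDC39, also parts of motile axonemes, were among these.

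The 44 genes first lost at 24 h included CER1, PYY and PIM2. CER1, a secreted antagonist of NODAL and BMP, was at 297 and 515 TPM in cjESCs, 55.4 and 36.5 at 12 h, 21.1 and 15.4 at 24 h, 16.2 and 7.48 at 48 h and 0 and 0 at 96 h. Its difference of -3.09 (SE 0.93, limma adjusted p = 0.0218) at 12 h did not pass. PYY, a peptide hormone gene, was at 565 and 711 TPM in cjESCs, 180.1 and 260.2 at 12 h, 88.7 and 146 at 24 h, 17 and 22.5 at 48 h and 1.4 and 1.9 at 96 h. The kinase gene PIM2 went from 62.6 and 45.2 TPM to 9.82 and 8.71 TPM at 24 h. NR5A2, a nuclear receptor that can act on POU5F1, was at 39 and 27.5 TPM in cjESCs, 8.9 and 7.79 at 12 h, 4.14 and 2.69 at 24 h, 0.88 and 0.99 at 48 h and 6.11 and 7.36 at 96 h. It had partly returned by 96 h. The mesoderm gene MESP2 took the other direction at 24 h and was higher only then, at 7.76 and 9.65 TPM in cjESCs, 53.5 and 28.2 TPM at 24 h and 6.1 and 2.64 TPM at 96 h.

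At 48 h the losses reached the NODAL axis and the primitive streak. Of 8 measured genes of NODAL signaling, none was lower at 12 h, 3 were at 48 h and 4 at 96 h. NODAL itself stood at 390.4 and 438 TPM in cjESCs, 231 and 193 at 12 h, 169 and 206 at 24 h, 26.8 and 29.3 at 48 h and 0.24 and 0.22 at 96 h. GDF3, a related ligand, was at 1259.5 and 1161 TPM in cjESCs, 323 and 265 TPM at 48 h and 20.3 and 18.6 TPM at 96 h. FOXH1, the nuclear partner of SMAD2 and SMAD3, fell at 96 h. The cjESCs had high levels of streak genes before any BLSE. TBXT (brachyury) stood at 435 and 404 TPM in cjESCs, 393 and 297 at 12 h, 281 and 344 at 24 h, 48 and 42.4 at 48 h and 0 and 0 at 96 h. MIXL1, a homeobox gene of the streak, was at 353 and 326 TPM in cjESCs, 178 and 94.2 at 12 h, 294 and 206 at 24 h, 36 and 39.99 at 48 h and 0.40 and 0 at 96 h. EOMES, a T-box factor upstream of mesoderm and endoderm, was at 30.6 and 29.98 TPM in cjESCs, 23.6 and 14.2 at 12 h, 30.3 and 21.1 at 24 h, 4.28 and 5.37 at 48 h and 0 and 0.73 at 96 h. All 3 were still within 4-fold of cjESCs at 24 h, and were at or close to 0 at 96 h. Of 17 streak genes, 5 were lower at 48 h and 8 at 96 h, while EVX1 and CDX2 were higher at both. EVX1, a homeobox gene of the posterior streak, was at 24.7 and 25.4 TPM in cjESCs, 103 and 93.1 at 12 h, 121 and 113 at 24 h, 175 and 163 at 48 h and 108 and 132 at 96 h. FGF8, a streak ligand, was at 11.8 and 22.4 TPM at 24 h and 0.92 and 1.98 TPM at 48 h. Between 24 and 48 h the largest log2 differences downwards were those of ZIC2 (-2.89), UTF1 (-2.86) and FGF8 (-2.85). The call of ZIC2 was lost without any 1 of the 4 libraries of this step (log2 differences from -3.11 to -2.68), and that of FGF8 without replicate 2 at 24 h (-2.42) or replicate 1 at 48 h (-2.54).

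WNT genes split by time. Of 17 measured targets, ligands and receptors, 4 were higher at 48 h and none lower; at 96 h 2 were higher and 5 lower. WNT8A, a ligand of the streak, was at 36.2 and 38.5 TPM in cjESCs, 59.5 and 38 at 12 h, 99.8 and 103 at 24 h, 28.3 and 26.9 at 48 h and 0 and 0 at 96 h. It was highest at 24 h, where its difference of 1.42 (SE 0.41, limma adjusted p = 0.0108) did not pass. WNT3 was at 49.9 and 52.6 TPM in cjESCs, 41.5 and 41.3 TPM at 48 h and 7.04 and 10.3 TPM at 96 h. AXIN2, a feedback target of β-catenin, was at 12.6 and 8.66 TPM in cjESCs, 6.67 and 7.62 at 12 h, 9.62 and 5.7 at 24 h, 5.78 and 4.2 at 48 h and 1.37 and 1.93 at 96 h. DKK4, another target, was at 44.9 and 62.9 TPM in cjESCs, 37.1 and 54.1 at 12 h, 20.2 and 20.1 at 24 h, 16 and 16.7 at 48 h and 0.81 and 1.22 at 96 h. RSPO3, which amplifies WNT signals, moved the other way: it stood at 5.28 and 2.33 TPM in cjESCs, 8.07 and 14.2 at 12 h, 11.6 and 9.19 at 24 h, 16.7 and 19.3 at 48 h and 125 and 124 at 96 h. The antagonist gene DKK1 rose to 19.9 and 28.8 TPM at 48 h and was at 2.8 and 4.65 TPM at 96 h, against 1.26 and 2.24 TPM in cjESCs. LEF1 rose through 96 h (values above), so that LEF1 and AXIN2, often read together as WNT targets, had opposite signs at 96 h. In the retinoic acid list, 1 gene of 12, CRABP2, was higher at 48 h and 1, CRABP1, lower at 96 h; both bind retinoic acid in the cytoplasm.

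A further set of epiblast and epithelial genes was first called lower than cjESCs at 96 h. Of these 2 lists, only SOX3 and FGF2 were also called lower in the step from 48 to 96 h. SOX3 was at 25.9 and 21 TPM in cjESCs, 24.1 and 26 at 12 h, 28.3 and 33.5 at 24 h, 16.7 and 17.5 at 48 h and 0.99 and 0.54 at 96 h. FGF2 was at 118 and 77.4 TPM in cjESCs, 97.8 and 96.8 at 12 h, 129 and 77.2 at 24 h, 61.1 and 76.4 at 48 h and 6.62 and 9.98 at 96 h. Neither was called before 96 h. Of 10 measured genes of the primed epiblast, 1 was lower at 48 h (ZIC2) and 5 were at 96 h, while DUSP6 was higher at both. SFRP2 followed the same order, at 209.9 and 207 TPM at 48 h and 73.3 and 63.9 TPM at 96 h. Of 12 kept genes of epithelial and mesenchymal state, 4 were called lower than cjESCs, all at 96 h and all epithelial. None of the 12 was called in the step from 48 to 96 h. CDH1 (E-cadherin) was at 193 and 206 TPM in cjESCs and 35.5 and 43.6 TPM at 96 h. EPCAM, an adhesion molecule of epithelia, was at 1291 and 1052 TPM and 279 and 256 TPM. The tight junction gene CLDN6 was at 111 and 136 TPM and 25.9 and 32.5 TPM, and the splicing factor gene ESRP1 at 19.2 and 15.7 TPM and 2.23 and 1.93 TPM. The mesenchymal side was not called against cjESCs: VIM stood at 375 and 729 TPM and 1924 and 1764 TPM, CDH2 at 6.12 and 4.48 TPM and 0.53 and 0.77 TPM, and SNAI1, SNAI2 and TWIST1 did not pass at any time. Smaller changes are not covered by these calls. Of the 12 genes, 9, 9, 9 and 11 had an unadjusted p under 0.05 by limma at 12, 24, 48 and 96 h.

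The 156 genes first gained at 96 h included several that were low at 48 h. S100P, a calcium-binding protein, was at 0 and 0 TPM in cjESCs, 0.85 and 0.80 at 12 h, 0 and 0.74 at 24 h, 0.71 and 1.75 at 48 h and 76.6 and 142 at 96 h. GAST, the gastrin gene, was at 11.8 and 0 TPM at 48 h and 169 and 231 TPM at 96 h. ERVV-2, an envelope gene of retroviral origin, was listed at 0 in cjESCs and was at 46.2 and 46.7 TPM at 96 h. CD52, a surface glycoprotein known from lymphocytes, was listed at 0 in all 8 earlier libraries and was at 22.5 and 31 TPM at 96 h. NR0B1, a nuclear receptor cofactor, was at 1.32 and 2.17 TPM at 48 h and 37.4 and 32.8 TPM at 96 h, TCL1B at 7.6 and 2.56 and 68.5 and 80.9 TPM, and the transporter gene SLC13A4 at 12 and 8.85 and 108 and 187 TPM. In each of these genes the lower of the 96 h libraries was above the higher of the 48 h ones.

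Matrix genes did not move as 1 group. Of 22 kept genes of stromal matrix, 2 were higher at 12 h, 2 at 48 h and 4 at 96 h. At 96 h 2 were lower, and the median difference was 0.43. Over all genes tested, 0.607%, 1.71% and 2.82% were higher at these times and 3.3% were lower at 96 h. DCN and A2M rose from 12 h, and LUM, another small proteoglycan, only at 96 h: it was at 3.27 and 2.51 TPM in cjESCs, 5.64 and 6.77 at 12 h, 2.11 and 3.04 at 24 h, 5.61 and 6.71 at 48 h and 98.1 and 68.5 at 96 h. FBN1 (fibrillin) was at 12.1 and 15.1 TPM in cjESCs, 36.4 and 53.4 TPM at 48 h and 122 and 109 TPM at 96 h. The chains of type I collagen went down over the same time. COL1A1 was at 41.8 and 83.6 TPM in cjESCs, 30.7 and 55.4 at 12 h, 27.5 and 41.1 at 24 h, 39.8 and 44.6 at 48 h and 9.34 and 10.4 at 96 h. COL1A2 was at 141 and 108 TPM in cjESCs, 83.7 and 200.4 at 12 h, 47.6 and 109 at 24 h, 27.2 and 58.6 at 48 h and 6.92 and 14.5 at 96 h. In COL1A2 replicate 2 was above replicate 1 at all 4 times of BLSE. COL3A1 was lower than in cjESCs at 24 h only, at 0.59 and 1.68 TPM against 3.71 and 13.6 TPM, and was at 10.7 and 9.92 TPM at 96 h.

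Because the BLSE libraries were unsorted and cjESCs grow on mouse fibroblasts, genes of the feeder fibroblast were read beside these. Of 12 measured, 1 was higher at 12 h, and at 96 h 3 were higher (DCN, LUM and PDGFRA) and 4 lower (PDGFRB, S100A6, COL1A1 and COL1A2). Their summed TPM lay between 1891 and 2560 in the cjESC libraries, 2948 and 3605 at 12 h, 2155 and 2831 at 24 h, 2339 and 2397 at 48 h, and 5587 and 5834 at 96 h. LGALS1 made up most of this; without it the sums were 302 to 420 at the start, 356 to 516 at 12 h, and 1305 to 1975 at 96 h. THY1, a surface glycoprotein of fibroblasts and of several other cell types, was at 5.16 and 5.56 TPM in cjESCs, 3.69 and 4.25 at 12 h, 1.95 and 3.79 at 24 h, 1.87 and 1.98 at 48 h and 1.79 and 2.56 at 96 h. PDGFRB was at 11.4 and 9.67 TPM in cjESCs, 7.02 and 7.15 at 12 h, 8.64 and 6.01 at 24 h, 3.67 and 3.58 at 48 h and 0.21 and 0.52 at 96 h. PDGFRA stood at 13.2 and 23.6 TPM in cjESCs, 28.9 and 20.3 at 12 h, 18.3 and 9.66 at 24 h, 23.6 and 25.2 at 48 h and 104 and 88.2 at 96 h. The part of feeder cells in the values of DCN, LUM and PDGFRA was not tested.

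**Figure D4:**
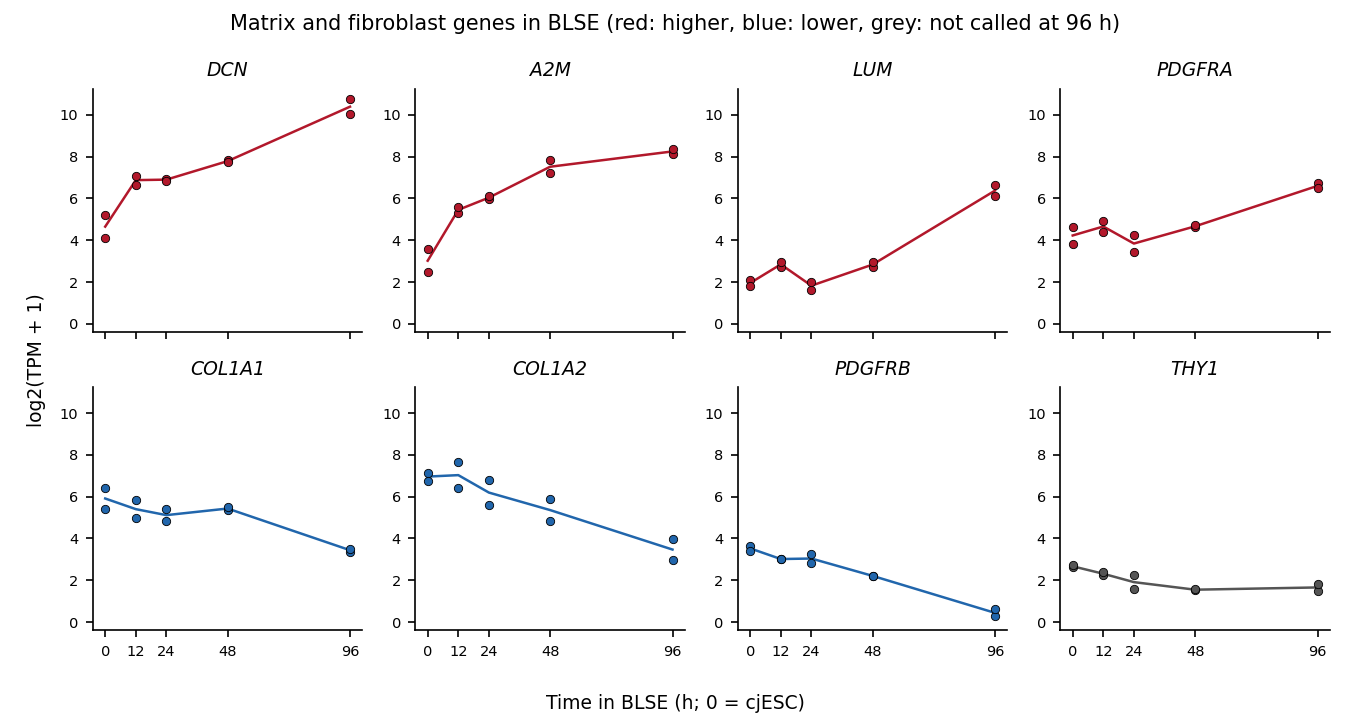
Matrix and fibroblast genes over time in BLSE, with time in h on the x axis (cjESCs at 0) and log2(TPM + 1) on the y axis; each point is 1 library, each line the mean of 2. DCN, A2M and LUM were higher at 96 h while COL1A1, COL1A2 and PDGFRB were lower, and THY1 stayed below 6 TPM throughout.

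Some endothelial markers rose. Of 14 kept, 2 were higher at 12 h, 4 at 48 h and 6 at 96 h. The shares of all genes tested that were higher at these times were 0.607%, 1.71% and 2.82%. None of the 14 fell, where 3.3% of all genes were lower at 96 h. ANGPT2, a ligand of the receptor TEK, was at 4.18 and 2.34 TPM in cjESCs, 27 and 18.6 at 12 h, 23.1 and 20.3 at 24 h, 46.5 and 61.9 at 48 h and 365 and 396 at 96 h. ESM1 was at 5.89 and 1.63 TPM in cjESCs, 44.1 and 35.5 at 12 h, 32 and 38.3 at 24 h, 15.9 and 19.6 at 48 h and 19.2 and 18.2 at 96 h, highest at 12 and 24 h. CDH5 (VE-cadherin) reached 18 and 20.2 TPM and LMO2, a blood and endothelial cofactor, 32.9 and 32.9 TPM at 96 h, against 1.21 and 0.51 and 2.07 and 1.83 TPM in cjESCs. PECAM1, KDR, FLT1 and TEK were not called at any time; PECAM1 was at 16.8 and 11.4 TPM and KDR at 26.8 and 33.3 TPM at 96 h. None of 8 kept neural genes (13 in the table) and none of 10 genes of definitive endoderm was called by limma at any of the 4 times. Over all genes, 3.29% were gained and 3.51% lost at any time. By these shares alone, lists this short would hold few calls or none, so the counts do not show that such cells were absent. The median differences of the neural and endoderm lists at 96 h were 0.03 and 0.00, and between 1 and 4 genes of each list had an unadjusted p under 0.05 at any 1 time.

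Germ cell genes were called mostly as losses. Of 14 measured, 1 was higher at 12 h and 4 were lower at 96 h, against 0.607% and 3.3% of all genes tested. NANOS3, an RNA-binding protein of germ cells, stood at 0.42 and 0.74 TPM in cjESCs, 6.67 and 4.34 at 12 h, 7.78 and 8.39 at 24 h, 3.82 and 3.44 at 48 h and 1.94 and 1.05 at 96 h. It was called at 12 and 24 h, and its locus also carries the reporter in this line. PDPN, a surface glycoprotein, was at 620.0 and 444 TPM in cjESCs, 403 and 338 at 12 h, 205 and 200.3 at 24 h, 70.4 and 59.7 at 48 h and 9.24 and 9.4 at 96 h. DND1 and DPPA3 fell at 96 h, from 59 and 61.1 TPM to 2.63 and 7.8 TPM and from 45.1 and 43.4 TPM to 1.11 and 1.76 TPM. KLF4, a factor shared with naive pluripotency, was at 62.5 and 65.6 TPM in cjESCs, 15.9 and 16 at 12 h, 12.2 and 14.3 at 24 h, 9.35 and 9.75 at 48 h and 25.4 and 36.8 at 96 h. It was called lower at 24 and 48 h. SOX17, PRDM1 and TFAP2C were not called. SOX17 stood at 27.6 and 36.2 TPM in cjESCs, 64.6 and 62.7 at 12 h, 58.9 and 37.8 at 24 h, 57.6 and 57.1 at 48 h and 34.6 and 46 at 96 h. For these 3 genes reads from the transgenes cannot be told from those of the endogenous gene in this table. DAZL and DDX4, genes of later germ cells, were not called at any time.

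The receptors of the factors in BLSE differed in their course. EGFR rose within 12 h, from 4.13 and 5.25 TPM to 31.3 and 38.5 TPM, and reached 113 and 115 TPM at 96 h, a log2 difference of 4.35 (SE 0.29, limma adjusted p = 5.51e-15). ERBB3 fell, and was at 118 and 77.2 TPM in cjESCs and 13.4 and 20.01 TPM at 96 h. LIFR, the LIF receptor, went from 11 and 11 TPM to 99.6 and 78.3 TPM and was first called at 96 h. KIT, the SCF receptor, was not called, with 0.17 and 0 TPM in cjESCs, 0 and 0 at 12 h, 0 and 0.15 at 24 h, 0.36 and 0.090 at 48 h and 0.080 and 0.070 at 96 h. Among feedback genes of ERK signaling, DUSP6, a phosphatase of ERK, rose from 48 h while SPRY2, an inhibitor further upstream, fell from the same time. They were at 233 and 233 TPM and 2.56 and 1.82 TPM at 96 h, against 40.2 and 22.6 TPM and 32 and 21.9 TPM in cjESCs. Of 9 measured genes around LIF and STAT3, LIFR was higher and PIM2 lower at 96 h, and STAT3 itself was not called.

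Genes of cell division and general metabolism were read next. Over all genes tested, 3.29% were gained and 3.51% lost at any time. By that share alone, short lists would hold few calls or none. Of 18 proliferation genes, the only calls were CDKN2B, higher at 12 h at 32.7 and 40.6 TPM against 10.1 and 6.52 TPM in cjESCs, and CDKN1C, higher at 96 h at 153 and 253 TPM against 25.6 and 30.5 TPM; both encode inhibitors of cyclin-dependent kinases. None of 14 genes of glycolysis and hypoxia was called by limma, although 11, 10, 12 and 3 had an unadjusted p under 0.05 at 12, 24, 48 and 96 h, with median differences of -0.46, -0.62, -0.75 and -0.07. A list of 14 ribosomal and housekeeping genes, added after the data were seen, also had no limma call, and ranged from -0.96 to 0.85 on the log2 scale at 96 h with 10 at an unadjusted p under 0.05. Of 7 DNA methylation genes, DNMT1, the maintenance methyltransferase, rose at 96 h, DNMT3B, a de novo enzyme, fell from 48 h, and the other 5 were not called at 96 h. DNMT1 was at 30.1 and 36.8 TPM in cjESCs, 63.2 and 59.1 at 12 h, 88.7 and 71 at 24 h, 101 and 109 at 48 h and 165 and 171 at 96 h. DNMT3B was at 59 and 61.7 TPM in cjESCs, 24 and 21.2 at 12 h, 16.8 and 16.6 at 24 h, 9.96 and 11.8 at 48 h and 4.51 and 4.76 at 96 h. MYCN fell from 48 h and MYCL at 96 h, while HMGA2, a chromatin protein of proliferating mesenchyme, rose at 96 h, from 9.27 and 16 TPM to 173 and 146 TPM. Of 14 stress genes, FOSB, ATF3 and HMOX1 rose, at 96 h.

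Not every early change lasted. At 96 h, 52 of the 368 gains and 24 of the 393 losses were no longer called, of which 29 and 16 were still more than 2-fold from cjESCs with a limma adjusted p under 0.01. Without replicate 1 of cjESCs there were 37 such losses in place of 24. ALCAM, an adhesion molecule, was back near its starting level: it was at 12 and 8.75 TPM in cjESCs, 54.8 and 63.9 at 12 h, 72.1 and 64.8 at 24 h, 76.5 and 104 at 48 h and 11.1 and 13.9 at 96 h. The chemokine gene CCL2 was at 1.26 and 1.11 TPM in cjESCs, 16.9 and 37.8 at 12 h, 10.6 and 19.7 at 24 h, 6.25 and 5.79 at 48 h and 8.12 and 5.26 at 96 h, highest at 12 h. HIC1, a transcriptional repressor, rose by 3.11 at 12 h and stood at 1.62 at 96 h. Among losses, PCP4, a calmodulin-binding protein, was at 52.2 and 52.2 TPM in cjESCs, 11.4 and 18 at 12 h, 7.43 and 9.34 at 24 h, 5.09 and 2.36 at 48 h and 64.5 and 101 at 96 h. It was called lower at 24 and 48 h and was not called at 96 h. By contrast FOXB1, counted here as not lasting, was listed at 0 at 48 and 96 h and missed the call at 96 h on the minimum mean level.

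For a finer order, each of the 685 genes called at 96 h was given a midpoint, the first time at which the interpolated mean log2(TPM + 1) lay midway between its cjESC and 96 h values. This assumes straight lines between the sampled times, and leaving out 1 library moved a gene's midpoint over a range of 5.97 h (gains) and 5.96 h (losses) at the median. The 316 gains had a median midpoint of 31.2 h (quartiles 11.1 and 51.4 h), and the 369 losses one of 34.0 h (18.8 and 52.5 h). With a pseudocount of 0.1 the medians were 27.5 and 42.2 h. Of the gains 31.3% passed the midpoint within 12 h, 9.18% between 12 and 24 h, 31.0% between 24 and 48 h and 28.5% later. Of the losses the shares were 14.4%, 20.9%, 33.9% and 30.9%. Gains were thus sparser between 12 and 24 h than within the first 12 h, an interval of the same length. The later intervals are longer, so their shares do not compare directly with these. As the midpoints rest on the values that gave the calls, the shares carry no test.

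**Figure D5:**
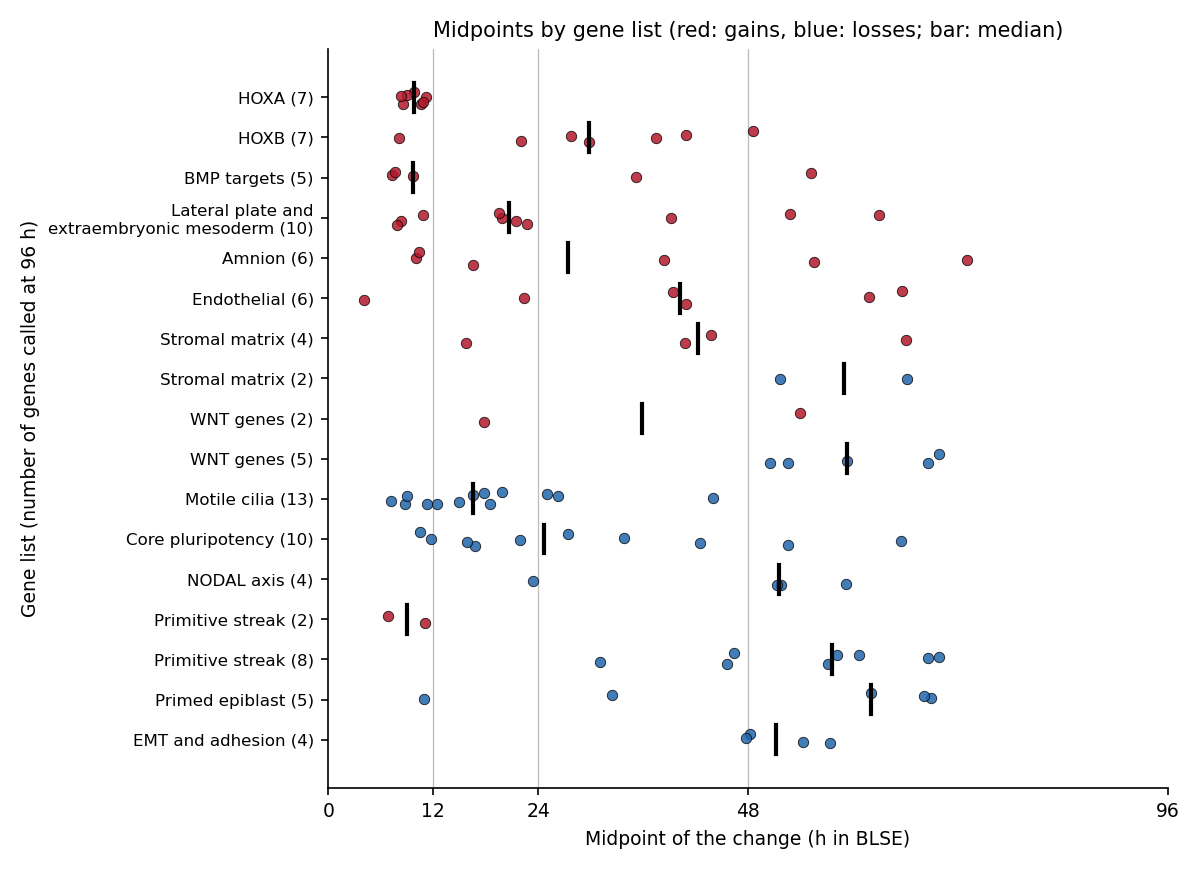
Midpoint of the change in h (x axis) for genes called at 96 h, each point 1 gene and each bar the median of its list (y axis), with gains in red and losses in blue. HOXA genes lie between 8.31 and 11.2 h and HOXB genes between 8.07 and 48.6 h; core pluripotency losses run from 10.5 h (FOXD3) to 65.5 h (POU5F1).

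Gene groups lay at different midpoints. Among gains, the 7 HOXA genes ranged from 8.31 to 11.2 h, and leaving out 1 library gave 7.81 to 16.4 h. The 7 HOXB genes ranged from 8.07 h for HOXB6 through 22 h for HOXB5 and 37.5 h for HOXB3 to 48.6 h for HOXB4. TBX3 (7.85 h), FOXF1 (8.34 h) and GATA2 (10.04 h) lay with the HOXA genes, TBX4 at 22.7 h, PITX1 at 39.2 h and DCN at 40.8 h between, and IGFBP3 (73 h) and GAST (70.5 h) at the end. Among losses FOXD3 (10.5 h) and SOX2 (16.8 h) came first, PRDM14 (27.4 h) and NANOG (42.6 h) next, and TBXT (58.2 h) and POU5F1 (65.5 h) last of these.

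The condition most like this one is SOX17 + BLSE, in which the same line received the same factors together with enforced SOX17, and was sampled in all cells at 12, 24 and 48 h (6 libraries). By the study's methods SOX17 alone was enforced by adding dexamethasone, a glucocorticoid, so that the effects of SOX17 and of this agent cannot be told apart in this comparison. TAT, a liver enzyme gene known to respond to glucocorticoids, was at 0.18 and 0.65 TPM in BLSE alone and 32.4 and 37 TPM in SOX17 + BLSE at 48 h. BLSE alone differed from it in few genes at first: 5 were higher and 13 lower at 12 h (0.0447% and 0.116%), 13 and 45 at 24 h (0.116% and 0.402%), and 93 and 133 at 48 h (0.831% and 1.19%). Under median-ratio scaling the splits were 7 and 11, 18 and 35, and 115 and 105, so that which direction had more genes at 48 h depends on the scaling; this scaling moved the median of all genes by 0.106 at 24 h. SOX17 itself was at 164 and 168 TPM at 12 h in SOX17 + BLSE against 64.6 and 62.7 TPM in BLSE alone, and was not called. Since reads of the transgene and of the endogenous gene cannot be told apart, these values are no check of the enforced gene. The change from 12 to 48 h was compared between the conditions in 1 test that uses no cjESC library. It called 22 genes whose change was higher in BLSE alone (0.196%) and 51 whose change was lower (0.455%). The total of 73 (0.652%) was 45 without replicate 1 of BLSE at 12 h or replicate 2 at 48 h. Of the 4 markers of the course, TBX4 changed more in BLSE alone by 3.26, A2M by 2.28 and LEF1 by 2.25, whereas DCN did not pass, at 0.53 (SE 0.62, limma adjusted p = 0.759). The call of A2M was lost without replicate 2 of BLSE at 48 h (1.97), replicate 1 of BLSE at 12 h (2.12), or in SOX17 + BLSE replicate 1 at 12 h (2.19) or replicate 2 at 48 h (2.05), and that of LEF1 without replicate 2 of BLSE at 48 h (1.99). With a pseudocount of 0.1, the changes of TBX4 (limma adjusted p = 0.0169), A2M (0.026) and LEF1 (0.053) did not pass. TBX4 stood at 11.3 and 8.94 TPM at 12 h and 18.9 and 12.2 TPM at 48 h in SOX17 + BLSE, against 8.41 and 9.31 and 132 and 144 TPM in BLSE alone. NANOG had the lower change in BLSE alone, by -2.61 on the log2 scale: it was at 270.2 and 331 TPM at 48 h in SOX17 + BLSE and at 31.5 and 22.6 TPM in BLSE alone. VCAM1, an adhesion molecule of mesoderm and endothelium, changed more in BLSE alone by 3.14, with 4.75 and 5.81 TPM at 48 h in SOX17 + BLSE against 32.3 and 35.5 TPM. SOX2 and POU5F1 were not called in this test, with differences of -1.3 and -1.11. At 48 h itself, of the 12 kept genes of epithelial and mesenchymal state, 1 was higher (VIM) and 1 lower (CDH2) in BLSE alone.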

How the data were processed

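RNA was measured in 54 libraries, of which the 10 of the BLSE course and, for comparison, 6 of SOX17 + BLSE are reported. Per the labels and the methods, poly(A) RNA was made into directional libraries. The authors aligned single-end reads to the marmoset genome with STAR, filtered alignments on mapping quality with samtools, counted them with RSEM and deposited TPM values per gene (14812 genes). The study's methods name the assembly as a cj1700 build of the marmoset. TPM are not counts, so edgeR, which the authors used, was replaced by limma 3.58.1 (R 4.3.3) on log2(TPM + 1).

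Genes at 1.5 or more on that scale in at least 1 library were kept (11197). One mean was fitted for each of the 27 conditions over all 54 libraries with an intensity trend, and p-values were adjusted by Benjamini-Hochberg over all genes kept. A gene was called at an adjusted p under 0.01, a difference over 2 on the log2 scale and a mean of both groups over 1.5. In simulated data for the 96 h comparison (10987 genes) 199 of 200 changed genes and 0 of 10787 others were called. The changed genes were all well expressed in cjESCs, were changed by more than the 4-fold of the call, and had independent noise. The simulation therefore says nothing of low genes or of changes near the threshold. No single value of 2 libraries against 2 can reach an exact permutation p below 0.33. Summaries were made in Python 3.11.15.

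The members and gene lists were chosen with earlier results of these data known; the lists of motile cilia and of ribosome and housekeeping genes were added after the values were seen. Genes are named where they belong to a reported list, are course markers, are among the 5 largest changes of a comparison in each direction or among the 6 largest of a class of first call. Some listed genes are not reported here. Alternatives were a pseudocount of 0.1, no filter or a filter over the 10 libraries, fits of fewer libraries, a replicate block, median-ratio and quantile scaling, no trend, a 2-fold threshold and leaving out each library.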

Additional observations from a re-analysis of the deposited data

Results flagged for a closer look

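Besides the comparison with cjESCs, the change from 12 to 48 h was compared between BLSE alone and SOX17 + BLSE by limma as a difference of differences, which uses no cjESC library. Of the genes named above, 17 differed between the conditions. The change was higher in BLSE alone for TBX4, by 3.26, VCAM1, by 3.14, ESM1, by 2.96, HOXC11, by 2.46, A2M, by 2.28, LEF1, by 2.25, and HOXB5, by 2.18 (log2 scale). It was lower in BLSE alone for TAT (-3.34), UTF1 (-2.9), PIM2 (-2.75), FOXJ1 (-2.72), NANOG (-2.61), PYY (-2.54), WNT8A (-2.45), PDPN (-2.14), TBXT (-2.11) and CDH2 (-2.0). The calls of TBX4, VCAM1, HOXC11, TAT, UTF1, PIM2, NANOG, PYY and PDPN, 9 of the 17, held without any 1 of the 8 libraries used. That of ESM1 was lost without replicate 2 of BLSE at 48 h (2.82) or replicate 1 of SOX17 + BLSE at 12 h (2.48), and those of A2M and LEF1 as given above. The call of CDH2 was lost without 4 of the libraries (replicate 1 of BLSE at 12 or 48 h, and in SOX17 + BLSE replicate 1 at 12 h or replicate 2 at 48 h; -1.96 to -1.85). That of HOXB5 was lost without these same 4 or replicate 2 of BLSE at 48 h (1.70 to 2.23), that of WNT8A without any but replicate 2 of BLSE at 12 h or replicate 1 of SOX17 + BLSE at 48 h (-2.67 to -2.03), and those of FOXJ1 (-3.08 to -2.37) and TBXT (-2.31 to -1.90) without any 1 of the 8. In SOX17 + BLSE NANOG was at 504 and 466 TPM at 12 h and 270.2 and 331 TPM at 48 h, and A2M at 43.5 and 38.6 TPM and 41.2 and 30.04 TPM. These 17 were picked from the genes already described, so their number is no measure of how widely the conditions differ. Groups of 2 libraries are too small for a check of single outlying samples.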

How the results depend on the processing

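The replicate numbers were not taken as pairs, since deviations of same-numbered libraries correlated at -0.0409 to 0.232 over 10 pairs of conditions. With a replicate block the counts were 84, 137, 379 and 685 genes at 12, 24, 48 and 96 h (83, 137, 379 and 685 without), 32 in place of 30 from 24 to 48 h and 76 in place of 73 for the comparison of changes with SOX17 + BLSE, and no call of a gene given here with its log2 difference changed.

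A threshold of 2-fold gave 424, 648, 1125 and 1678 genes against cjESCs at 12, 24, 48 and 96 h, 5, 123 and 549 for the successive steps, 147, 383 and 904 against SOX17 + BLSE at 12, 24 and 48 h, and 190 for the comparison of changes. Gains first called at 12, 24, 48 and 96 h were then 249, 90, 252 and 304, with 151 not called at 96 h, and losses 174, 194, 267 and 440, with 143 not called at 96 h. For the step from 12 to 24 h, a pseudocount of 0.1 gave 0 genes, no filter 1, a fit of the 10 libraries alone 0 and no intensity trend 1. For that from 24 to 48 h, the pseudocount gave 18 and the fit of 10 libraries 12. With the same pseudocount the comparison of changes gave 43 genes, losses not called at 96 h were 79, and median midpoints were 27.5 h for gains and 42.2 h for losses. The cause was not tested.

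Leaving out 1 library gave 72 to 106 genes at 12 h, 132 to 163 at 24 h, 355 to 428 at 48 h and 652 to 720 at 96 h; 0 to 1, 11 to 33 and 155 to 157 for the steps; 14 to 21, 46 to 71 and 203 to 254 against SOX17 + BLSE, and 45 to 79 for the comparison of changes. Leaving out either cjESC library gave 64 to 80, 22 to 31, 105 to 132 and 160 gains by time of first call with 53 to 55 not called at 96 h, and 19 to 26, 44 to 45, 131 to 136 and 197 to 198 losses with 33 to 37. Median midpoints lay between 29.5 and 33.1 h for gains and between 32.8 and 36.3 h for losses. Where 1 library was left in a condition, it was taken to vary like the others.

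Of 636 values of single genes under these alternatives, 559 kept their call and direction, 76 lost the call, 1 gained it (CER1 at 12 h in the fit of 10 libraries, -3.09) and none reversed. Apart from leaving out libraries, the calls lost in the comparison of changes were those of A2M, ESM1, FOXJ1, HOXB5, HOXC11, LEF1, TAT, TBX4, TBXT and WNT8A with the pseudocount of 0.1, of A2M, ESM1, FOXJ1, HOXB5 and WNT8A in the fit of 18 libraries, of FOXJ1, TBXT and WNT8A without a filter or without a trend, and of CDH2 under both other scalings. Elsewhere NOG (pseudocount), GCM1 (pseudocount, fit of 10 libraries and quantile normalization), FGF8 and ZIC2 (fit of 10 libraries) lost theirs. Depth is unknown, so low values such as those of KIT or NANOS3 have no interval of their own.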
